A study of Mus musculus with 25 samples.

Results

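The 10 genes described here encode transporters through which hepatocytes take up and export bile acids, bilirubin conjugates, hormones and drugs. They were chosen by name through the annotation of the array, as 4 organic anion uptake transporters (Slco1a1, Slco1a4, Slco1b2 and Slco2b1) and 6 ATP-driven exporters (Abcc2, Abcc3, Abcc4, Abcb1a, Abcb1b and Abcg2), out of 19938 genes with a named probe set. Each has 1 probe set, and all 10 passed the filter on dim signals that left 15951 genes for testing. Slco2b1, Abcc4 and Abcb1b passed it narrowly, with mean log2 signals 0.708, 0.766 and 1.17 above its limit.

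Expression was measured on 25 one-colour arrays of frozen mouse liver, 1 array per sample. All mice were labelled as strain FVB;129. The knockouts combined a Cre transgene with loxP sites in both Rb and p53 (DKO), in Rb (RbKO) or in p53 (p53KO). Cre was expressed from an albumin promoter, which aims it at hepatocytes. Which liver cells had lost the targeted genes when the livers were collected, and how many of them, was not examined. WT arrays are labelled wild type for both genes, and whether those mice carried Cre or loxP sites is not stated. Diethylnitrosamine (DEN), a carcinogen that hepatocytes turn into an alkylating agent, was injected once into the peritoneum of mice aged 14 days at a dose of 20 mg/kg, 24 h before the livers were collected. The groups were DEN DKO (5 arrays), DEN RbKO (4), DEN p53KO (5), DEN WT (5), untreated DKO (3) and untreated WT (3). The labels call the last 2 groups untreated, but the design text of the series mentions saline for controls. It is not stated that replicates of a group are different animals. The p-values therefore reflect only how far these samples spread, which may be technical, and their small number limits the precision of each value.

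Uptake transporters of the Slco family sit in the sinusoidal membrane of the hepatocyte, facing the blood, and bring in bile acids, thyroid hormones, steroid conjugates and many drugs without using sodium. Exporters of the Abc family use ATP. Abcc2, Abcb1a, Abcb1b and Abcg2 act at the canalicular membrane and discharge into bile, while Abcc3 and Abcc4 act at the basolateral membrane and return conjugates and bile acids to the blood, a route known to open when bile flow fails. Nuclear receptors such as the constitutive androstane receptor, the pregnane X receptor and the farnesoid X receptor, and the stress factor Nrf2, are known to control several of these genes.

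By their names the arrays form 3 sets. Set 1 has 16 arrays from every one of the 6 groups, set 2 has 4 (1 DEN RbKO, 2 DEN WT and 1 untreated WT) and set 3 has 5 (2 DEN DKO and 3 DEN p53KO). Set 2 stood apart, with a mean of 46.6 on the first principal component (25.8% of the variance) against -11.8 in set 1 and 0.641 in set 3, so the set was a term in the fit reported, and values within set 1 are given beside most of the results. The sexes are not given. The signal of Xist, transcribed from the inactive X chromosome of females, was at least 9.70 on 8 arrays and at most 4.15 on 17. The high signals fell on 2 of 5 DEN DKO, 2 of 4 DEN RbKO, 2 of 5 DEN p53KO, 0 of 5 DEN WT, 0 of 3 untreated DKO and 2 of 3 untreated WT arrays. Rb1, one of both targeted genes, had log2 signals of 5.18 to 5.82 in DEN DKO, 5.55 to 6.28 in DEN RbKO, 5.56 to 5.93 in DEN p53KO, 5.04 to 6.02 in DEN WT, 4.76 to 5.02 in untreated DKO and 5.3 to 5.76 in untreated WT, and was called in 0 of 11 comparisons by limma (unadjusted p under 0.05 in 2). Untreated DKO lay below untreated WT without overlap, but DEN RbKO was not lower than DEN WT, which goes against a lower Rb1 signal in arrays labelled RbKO. Which part of the gene the probe set covers was not examined, and the genotypes are used as labelled. Of 8 hepatocyte markers, 7 were tested, and their mean log2 signal lay between 11.6 and 12.2 on all arrays.

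The response to DEN was asked by comparing treated with untreated arrays within a genotype. A gene was called where limma's p for its log2 difference, after Benjamini-Hochberg adjustment across the 15951 genes, was under 0.05. In DKO, 4 of the 10 transporters were called, 2 higher and 2 lower, where 21.0% of all genes were called, 4.49% higher and 16.5% lower. In WT, 2 were called, 1 higher and 1 lower, against 3.99% of all genes, 2.08% higher and 1.91% lower. The difference between the responses of DKO and WT was called for 3 transporters, all above 0, whereas 9.91% of all genes were called, 1.36% above 0 and 8.54% below. All 3 were uptake genes: Slco1a1, Slco1a4 and Slco1b2. The median difference between the responses was 1.16 over the 4 uptake genes and -0.23 over the 6 exporters, beside -0.03 over all genes. The median response itself was 0.44 over the uptake genes and -0.10 over the exporters in DKO, beside 0.00 over all genes, and -0.65 over the uptake genes and 0.07 over the exporters in WT, beside 0.02 over all genes.

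**Figure D1:**
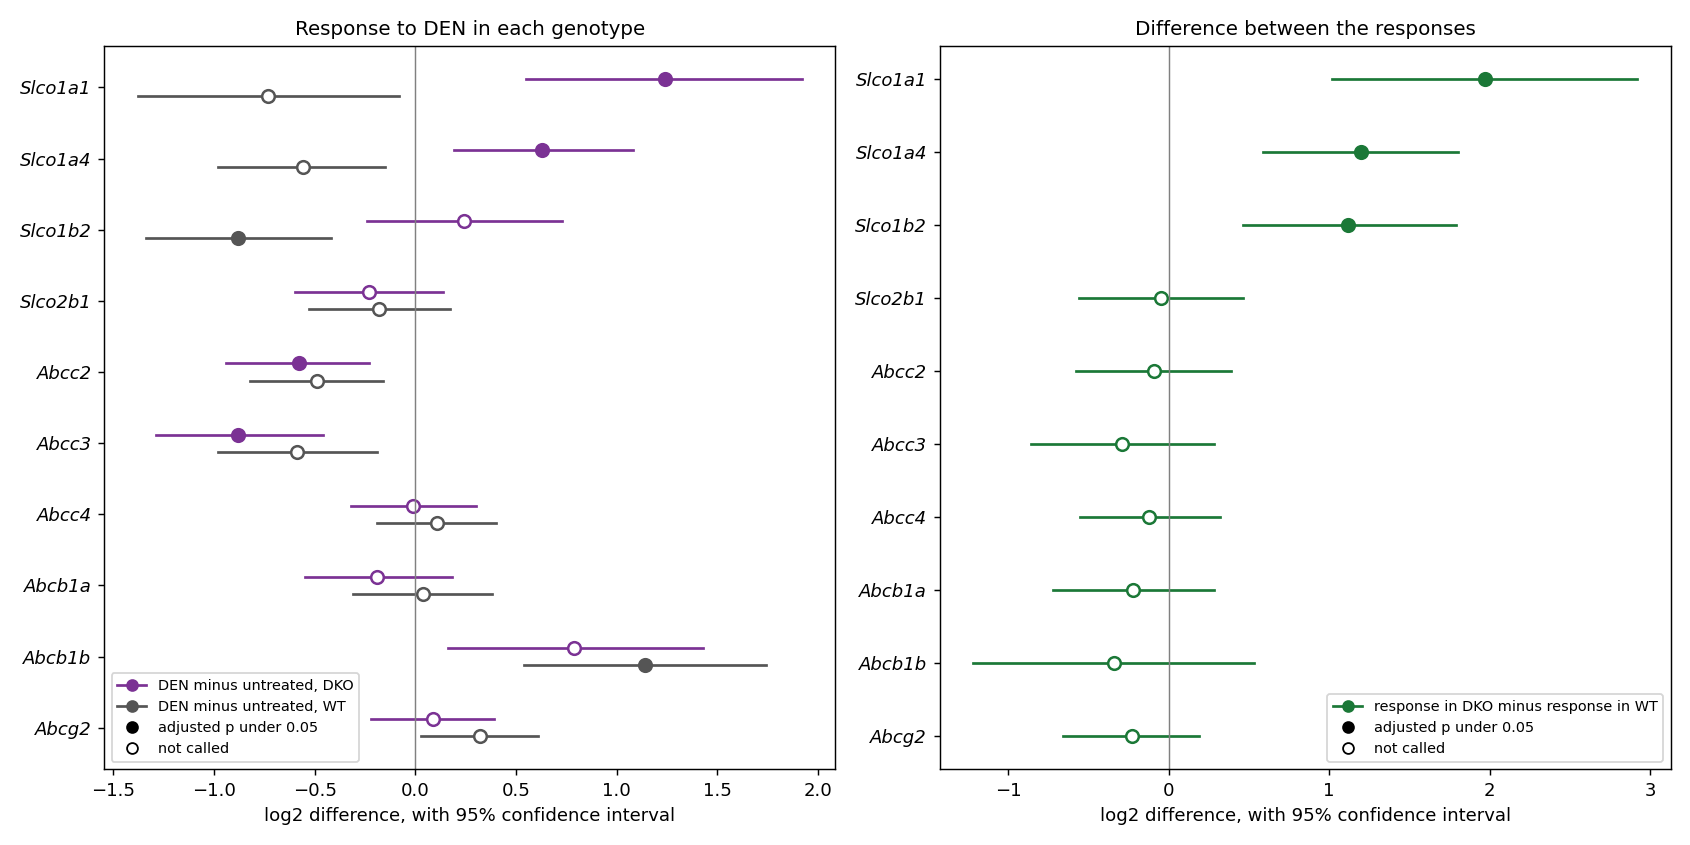
Left, log2 difference of DEN minus untreated arrays for each transporter in DKO and in WT, and right, the difference between both responses; points are limma estimates with 95% confidence intervals and filled points have an adjusted p under 0.05. Slco1a1, Slco1a4 and Slco1b2 are filled at 1.97, 1.20 and 1.12 in the right panel, and none of the other 7 is.

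Genotypes were compared without DEN and after it. In untreated livers 1 transporter, Slco1a1, was called in DKO against WT, and it was lower; 1.11% of all genes were called, 0.865% higher and 0.244% lower. After DEN, p53KO against WT again gave 1 call, Slco1a1 lower, beside 1.78% of all genes, 0.708% higher and 1.07% lower. RbKO against WT gave 4 calls, 3 higher (Slco1b2, Abcb1b and Abcg2) and 1 lower (Abcc3), where 11.4% of all genes were called, 5.23% higher and 6.13% lower. DKO against WT gave 0 calls by limma, with an unadjusted p under 0.05 for 4 transporters and 2 calls within set 1, while 11.8% of all genes were called, 2.69% higher and 9.14% lower.

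Between the 3 knockout genotypes after DEN, DKO against p53KO gave 1 call, Slco1a1 higher, beside 1.87% of all genes, 0.357% higher and 1.51% lower. In DKO against RbKO, 2 exporters were called lower, Abcb1b and Abcg2, where 1.03% of all genes were called, 0.144% higher and 0.884% lower. In p53KO against RbKO, Slco1a1 and Abcb1b were called lower, where 0.577% of all genes were called, 0.194% higher and 0.382% lower. Whether the effects of both losses add up was tested as DKO minus p53KO minus RbKO plus WT. By limma 0 transporters were called there, with an unadjusted p under 0.05 for 3, beside 0.426% of all genes, 0.100% above 0 and 0.326% below.

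**Figure D2:**
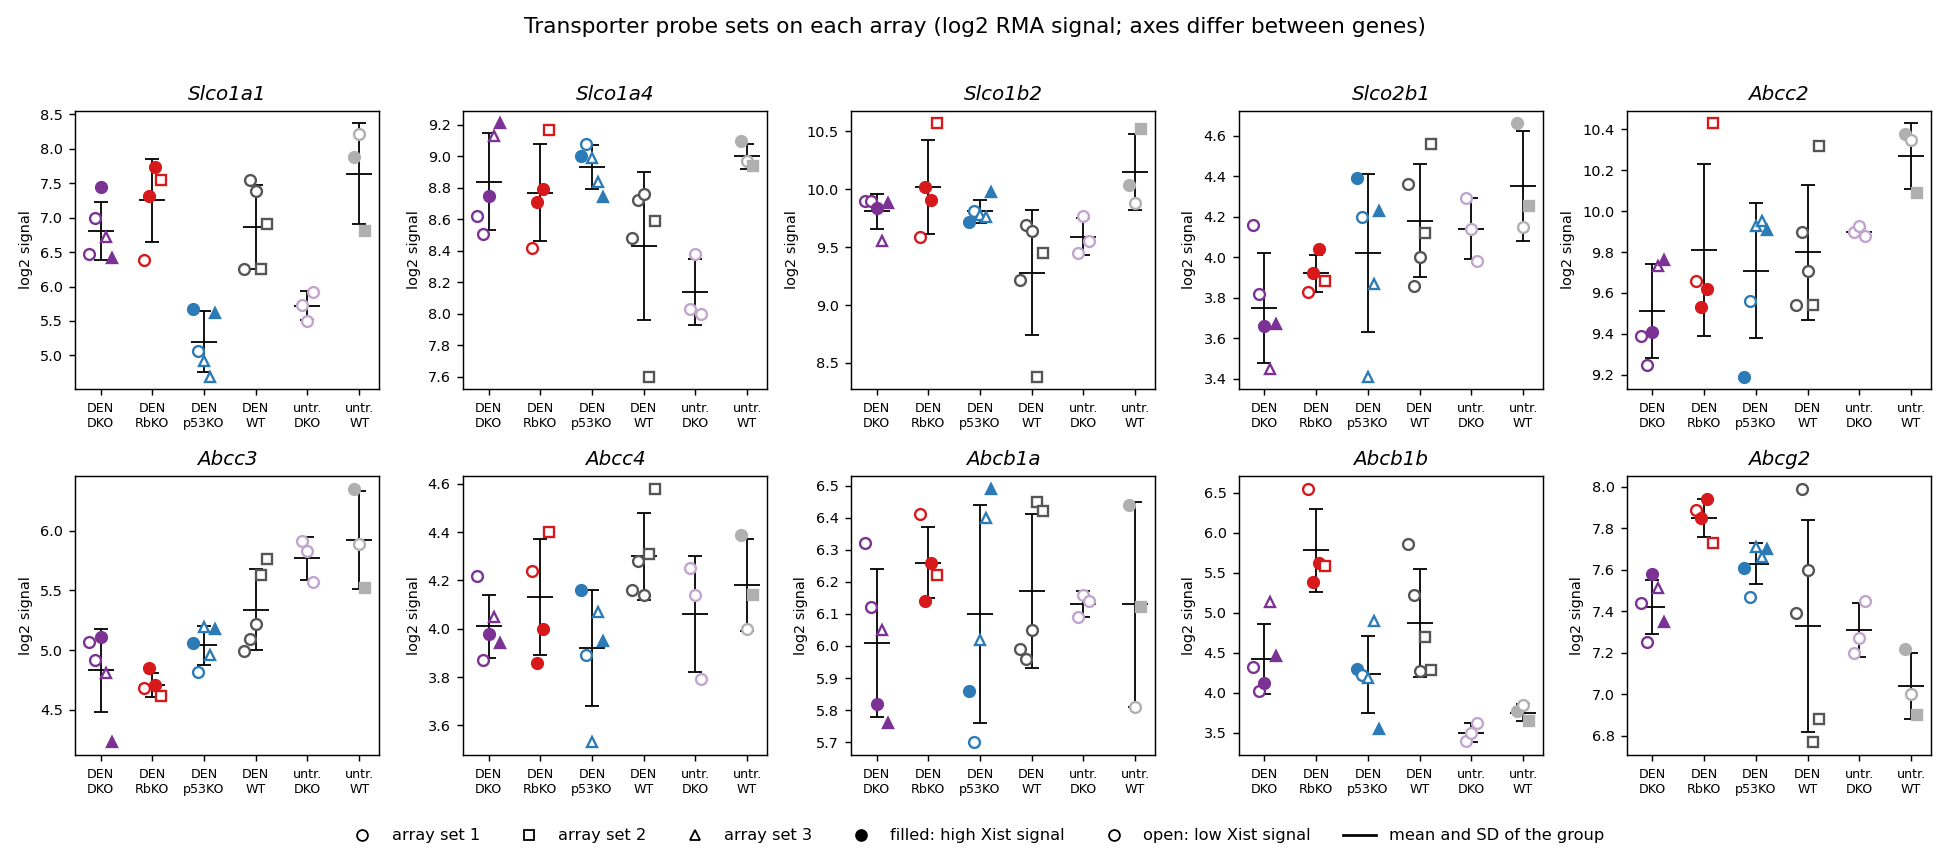
Log2 signal of each transporter on every array, by group, with the group mean and SD; the symbol gives the array set and filled symbols mark a high Xist signal. Slco1a1 lies at 4.69 to 5.68 in DEN p53KO and 5.50 to 5.92 in untreated DKO, under all other groups, and Abcb1b lies at 5.38 to 6.55 in DEN RbKO.

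The uptake genes Slco1b2, Slco1a4 and Slco1a1 lie on chromosome 6, with 1 protein-coding gene starting between the first and the second and 0 between the second and the third in RefSeq. Their promoters are shown because these are the genes whose DEN response differed between DKO and WT. Each window runs from 250 bases before the RefSeq gene start to 50 after it, 5′ to 3′ on the gene's strand (RefSeq, GRCm38.p6), and capitals mark motif matches. The windows are chr6:141946913-141947212 on the minus strand for Slco1a1, chr6:141856171-141856470 on the minus strand for Slco1a4 and chr6:141629268-141629567 on the plus strand for Slco1b2.
Slco1a1: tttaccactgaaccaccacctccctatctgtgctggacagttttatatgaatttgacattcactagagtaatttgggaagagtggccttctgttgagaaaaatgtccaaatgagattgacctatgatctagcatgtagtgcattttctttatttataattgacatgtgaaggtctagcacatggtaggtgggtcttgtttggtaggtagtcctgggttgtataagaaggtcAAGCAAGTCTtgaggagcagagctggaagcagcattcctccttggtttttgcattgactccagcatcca
Slco1a4: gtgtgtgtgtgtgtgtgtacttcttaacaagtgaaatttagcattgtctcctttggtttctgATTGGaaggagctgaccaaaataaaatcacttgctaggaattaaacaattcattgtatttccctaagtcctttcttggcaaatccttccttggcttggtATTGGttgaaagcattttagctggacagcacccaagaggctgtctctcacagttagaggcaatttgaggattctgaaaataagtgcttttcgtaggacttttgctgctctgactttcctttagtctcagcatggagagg
Slco1b2: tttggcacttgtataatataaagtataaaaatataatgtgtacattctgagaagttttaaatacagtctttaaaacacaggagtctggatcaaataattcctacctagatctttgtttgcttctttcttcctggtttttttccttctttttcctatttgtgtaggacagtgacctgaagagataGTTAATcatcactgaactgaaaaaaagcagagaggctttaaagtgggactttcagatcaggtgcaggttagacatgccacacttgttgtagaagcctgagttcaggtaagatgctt
Searched on both strands were the antioxidant response element core TGACNNNGC, the dioxin response element core GCGTG, the CCAAT box and the E2F-like core TTTNNCGC. Also searched were the HNF1 half-site GTTAAT and the p53 half-site, the decamer RRRCWWGYYY. Slco1a1 holds a p53 half-site at position -19 from the gene start, and Slco1a4 holds CCAAT on the opposite strand at -188 and -89. Slco1b2 holds GTTAAT at -66. Of 32851 promoter windows of this length, 8.36% hold the p53 decamer, 37.4% CCAAT, 7.10% GTTAAT, 12.4% TGACNNNGC, 32.4% GCGTG and 5.17% TTTNNCGC. None of the matches overlap each other, and a match is not a binding site.

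Slco1a1 encodes an importer of bile acids and steroid conjugates that is known to be higher in male than in female adult mouse liver. Its log2 signal was 6.48, 7.00, 7.44, 6.72 and 6.42 in DEN DKO, and 6.38, 7.32, 7.73 and 7.55 in DEN RbKO. It was 5.68, 5.07, 4.92, 4.69 and 5.61 in DEN p53KO, and 6.26, 7.55, 7.39, 6.26 and 6.91 in DEN WT. Untreated DKO arrays had 5.73, 5.50 and 5.92, and untreated WT arrays 7.88, 8.21 and 6.81. All DEN p53KO arrays lay below all DEN DKO, DEN RbKO and DEN WT arrays, and all untreated DKO arrays lay below all untreated WT and all DEN DKO arrays. From the lowest mean to the highest, the groups were DEN p53KO (5.20 ± 0.44), untreated DKO (5.72 ± 0.21), DEN DKO (6.81 ± 0.42), DEN WT (6.87 ± 0.61), DEN RbKO (7.25 ± 0.60) and untreated WT (7.64 ± 0.73; SD, n = 3 to 5), and only untreated DKO and DEN DKO did not overlap among neighbours in this order.

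In untreated DKO the Slco1a1 signal was 0.24 times that of untreated WT, a log2 difference of -2.06 (SE 0.36, adjusted p = 0.00396), and -2.33 (adjusted p = 0.00107) within set 1. After DEN it was lower in p53KO than in WT by a log2 difference of -1.63 (SE 0.34, 0.322-fold, adjusted p = 0.0158), or -1.69 (adjusted p = 0.0127) within set 1. DKO after DEN differed from WT by -0.09 (95% confidence interval -0.73 to 0.56, adjusted p = 0.901). It lay above p53KO by 1.55 (SE 0.28, adjusted p = 0.00488), with 1.60 within set 1 and 1.5 within set 3. Against RbKO, p53KO was at -1.94 (SE 0.34, adjusted p = 0.00523), or -1.77 (adjusted p = 0.0154) within set 1, and the additivity term was 1.24 (SE 0.40, adjusted p = 0.116).

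Slco1a1 rose with DEN in DKO by 1.24 (SE 0.33, 2.35-fold, adjusted p = 0.00897), or 1.26 (adjusted p = 0.00966) within set 1. In WT its difference was -0.73 (SE 0.32, adjusted p = 0.220), with overlapping groups. The response of DKO minus that of WT was 1.97 (SE 0.46, adjusted p = 0.00752), or 2.24 (adjusted p = 0.0113) within set 1. The untreated groups enter both the response and the untreated genotype difference, so these values are not independent. The call in untreated livers ended without untreated WT replicate 2 (-1.79, adjusted p = 0.0523). That of p53KO against WT ended without DEN p53KO replicate 2 (-1.45, adjusted p = 0.108), as did that of p53KO against RbKO (-1.76, adjusted p = 0.0532).

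Xist moved with some of these groups. Among arrays with a low Xist signal, Slco1a1 was at 4.69 to 5.07 on 3 DEN p53KO arrays, against 6.26 to 7.55 on 5 DEN WT arrays, and at 5.50 to 5.92 on 3 untreated DKO arrays, against 8.21 on the single untreated WT array. The 2 DEN p53KO arrays with a high Xist signal had 5.61 and 5.68. With the low-Xist arrays alone, a fit added after seeing the data, the untreated difference was -2.50 (adjusted p = 0.0345), that of p53KO against WT after DEN -1.88 (adjusted p = 0.0950), and the difference between the DEN responses 2.41 (adjusted p = 0.101). With Xist as a covariate they were -1.84 (adjusted p = 0.0308), -1.73 (adjusted p = 0.0144) and 1.65 (adjusted p = 0.0661). The low-Xist arrays alone also ended the calls for the rise with DEN in DKO (1.06, adjusted p = 0.05), for DKO against p53KO (1.79, adjusted p = 0.0825) and for p53KO against RbKO (-1.98, adjusted p = 0.0915).

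Slco1a4 imports bile acids and digoxin, and is a known target of the pregnane X receptor in mouse liver. Its log2 signal was 8.62, 8.51, 8.75, 9.13 and 9.21 in DEN DKO, 8.42, 8.71, 8.79 and 9.17 in DEN RbKO, and 9.00, 9.08, 8.99, 8.84 and 8.74 in DEN p53KO. DEN WT arrays had 8.48, 8.72, 8.76, 7.60 and 8.59, of which replicate 4, an array of set 2, was the lowest of all 25. Untreated DKO arrays had 8.03, 8.38 and 8.00, and untreated WT arrays 9.10, 8.97 and 8.94. Untreated DKO did not overlap with DEN DKO or with untreated WT, nor did DEN WT overlap with untreated WT. Ordered by mean, lowest first the groups were untreated DKO (8.14 ± 0.21), DEN WT (8.43 ± 0.47), DEN RbKO (8.77 ± 0.31), DEN DKO (8.84 ± 0.31), DEN p53KO (8.93 ± 0.14) and untreated WT (9.00 ± 0.08; SD, n = 3 to 5), with overlap between all neighbours.

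The DEN response of Slco1a4 was 1.20 larger in DKO than in WT (SE 0.30, adjusted p = 0.0107), or 0.87 (adjusted p = 0.0111) within set 1. In DKO it rose by 0.63 (SE 0.21, adjusted p = 0.0360), or 0.49 (adjusted p = 0.00927) within set 1, and in WT its difference was -0.56 (SE 0.20, adjusted p = 0.124). The rise in DKO was not called with each array centred on its median (0.53, adjusted p = 0.0709), nor without any of 5 arrays (at most adjusted p = 0.131, with untreated DKO replicate 3 left out). Xist as a covariate (0.63, adjusted p = 0.0585) and the low-Xist arrays alone (0.55, adjusted p = 0.204) also ended that call. The difference between the responses was 1.18 (adjusted p = 0.0490) with the covariate and 1.02 (adjusted p = 0.388) on the low-Xist arrays, where it was not called. Without DEN, DKO was at -0.91 against WT (SE 0.23, adjusted p = 0.0547), a difference that was called within set 1 (-0.90, adjusted p = 0.00111). After DEN the differences from WT were 0.29 in DKO, 0.32 in RbKO and 0.34 in p53KO, none called (adjusted p = 0.399, 0.294 and 0.451).

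Slco1b2, expressed almost only in hepatocytes, takes up bilirubin and bile acids and carries many drugs into the liver. Its log2 signal was 9.90, 9.90, 9.84, 9.55 and 9.88 in DEN DKO, 9.59, 10.02, 9.91 and 10.57 in DEN RbKO, and 9.72, 9.81, 9.78, 9.76 and 9.98 in DEN p53KO. It was 9.22, 9.69, 9.64, 8.38 and 9.45 in DEN WT, 9.45, 9.77 and 9.55 in untreated DKO, and 10.04, 9.88 and 10.52 in untreated WT. All DEN WT arrays lay below all untreated WT and all DEN p53KO arrays. As for Slco1a4, the lowest array was DEN WT replicate 4. From the lowest mean to the highest the groups were DEN WT (9.28 ± 0.54), untreated DKO (9.59 ± 0.16), DEN p53KO (9.81 ± 0.10), DEN DKO (9.81 ± 0.15), DEN RbKO (10.02 ± 0.41) and untreated WT (10.15 ± 0.33; SD, n = 3 to 5), and neighbours overlapped.

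Slco1b2 fell with DEN in WT by 0.88 on the log2 scale (SE 0.22, adjusted p = 0.0228), with -0.44 within set 1 (adjusted p = 0.0716) and -1.61 within set 2, where 2 arrays stood against 1. The call ended without untreated WT replicate 1 (adjusted p = 0.0777) or replicate 3 (-0.65, adjusted p = 0.168). In DKO the difference was 0.24 (SE 0.24, adjusted p = 0.497). The response of DKO minus that of WT was 1.12 (SE 0.32, adjusted p = 0.0269), or 0.74 (adjusted p = 0.0343) within set 1. That call was lost when untreated DKO replicate 1 (1.05, adjusted p = 0.0713), untreated DKO replicate 3 (1.1, adjusted p = 0.0619) or untreated WT replicate 3 (0.90, adjusted p = 0.145) was left out. It was also lost without set 2 (0.69, adjusted p = 0.0574) and with no term for the set (1.1, adjusted p = 0.05).

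After DEN, Slco1b2 was higher in RbKO than in WT by 0.76 (SE 0.21, adjusted p = 0.0195). Within set 1 the difference was 0.32 (adjusted p = 0.214), within set 2 it was 1.66 between 1 and 2 arrays, and without DEN RbKO replicate 4 it was 0.49 (adjusted p = 0.257). DKO and p53KO differed from WT by 0.59 each, with confidence intervals of 0.13 to 1.04 and 0.10 to 1.08, and neither was called (adjusted p = 0.0836 and 0.194). In untreated livers DKO was at -0.53 (SE 0.26, adjusted p = 0.406). With Xist as a covariate the fall with DEN in WT (-0.83, adjusted p = 0.0721) and the difference between the responses (1.04, adjusted p = 0.113) were not called, while RbKO against WT was (0.72, adjusted p = 0.0415). On the low-Xist arrays alone RbKO against WT was at 0.82 and was not called. The DEN difference in WT was -0.55 there and the difference between the responses 0.81, neither called, with a single untreated WT array.

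Slco2b1, an importer of steroid sulfates, lay closest to the filter. Its log2 signal ranged from 3.45 to 4.16 in DEN DKO, 3.83 to 4.04 in DEN RbKO, 3.41 to 4.39 in DEN p53KO, 3.86 to 4.56 in DEN WT, 3.98 to 4.29 in untreated DKO and 4.15 to 4.66 in untreated WT. All 6 groups overlapped with their neighbours by mean, and it was called in 0 of 11 comparisons by limma, at an unadjusted p under 0.05 in 1 of them, DKO against p53KO (-0.34, SE 0.15, adjusted p = 0.246). With DEN it differed by -0.23 in DKO (95% confidence interval -0.60 to 0.14) and by -0.18 in WT (-0.53 to 0.17).

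Among the exporters that discharge into bile, Abcc2 carries bilirubin conjugates and glutathione conjugates. Its log2 signal was 9.39, 9.25, 9.41, 9.73 and 9.76 in DEN DKO, 9.66, 9.53, 9.62 and 10.43 in DEN RbKO, and 9.19, 9.56, 9.93, 9.95 and 9.91 in DEN p53KO. It was 9.54, 9.90, 9.71, 9.54 and 10.32 in DEN WT, 9.90, 9.93 and 9.88 in untreated DKO, and 10.38, 10.35 and 10.09 in untreated WT. The 3 untreated DKO arrays, at 9.88 to 9.93, lay above all DEN DKO arrays and below all untreated WT arrays. In ascending order of means the groups were DEN DKO (9.51 ± 0.23), DEN p53KO (9.71 ± 0.33), DEN WT (9.80 ± 0.33), DEN RbKO (9.81 ± 0.42), untreated DKO (9.90 ± 0.02) and untreated WT (10.27 ± 0.16; SD, n = 3 to 5), and of these neighbours only the last 2 did not overlap.

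Abcc2 fell with DEN in DKO by 0.58 on the log2 scale (SE 0.17, 0.667-fold, adjusted p = 0.0159), or -0.55 (adjusted p = 0.00173) within set 1. The call ended with no term for the set (-0.39, adjusted p = 0.200) and without untreated DKO replicate 2 (-0.57, adjusted p = 0.0530). In WT it was at -0.49 (SE 0.16, adjusted p = 0.0920), and within set 1 at -0.65 (adjusted p = 0.00307). The responses differed by -0.09 (95% confidence interval -0.58 to 0.39, adjusted p = 0.858). After DEN, Abcc2 was at -0.38 in DKO against WT (SE 0.16, adjusted p = 0.132), or -0.37 (adjusted p = 0.0496) within set 1. In untreated livers DKO was at -0.28 (SE 0.19, adjusted p = 0.605), or -0.47 (adjusted p = 0.0413) within set 1.

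Abcb1a and Abcb1b encode the 2 P-glycoproteins of the mouse, which pump drugs and other hydrophobic compounds out of cells. Both lie on chromosome 5, with 0 protein-coding genes starting between them in RefSeq. Their promoter windows are shown because of these neighbouring, related genes Abcb1b was called in 4 comparisons and Abcb1a in 0. The windows, drawn as above, are chr5:8566841-8567140 for Abcb1a and chr5:8797897-8798196 for Abcb1b, both on the plus strand of GRCm38.p6 in RefSeq.
Abcb1a: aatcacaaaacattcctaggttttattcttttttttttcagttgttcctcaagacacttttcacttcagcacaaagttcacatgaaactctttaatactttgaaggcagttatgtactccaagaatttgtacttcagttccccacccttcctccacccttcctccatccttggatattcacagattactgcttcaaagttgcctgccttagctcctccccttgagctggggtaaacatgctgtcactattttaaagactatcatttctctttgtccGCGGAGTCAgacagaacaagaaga
Abcb1b: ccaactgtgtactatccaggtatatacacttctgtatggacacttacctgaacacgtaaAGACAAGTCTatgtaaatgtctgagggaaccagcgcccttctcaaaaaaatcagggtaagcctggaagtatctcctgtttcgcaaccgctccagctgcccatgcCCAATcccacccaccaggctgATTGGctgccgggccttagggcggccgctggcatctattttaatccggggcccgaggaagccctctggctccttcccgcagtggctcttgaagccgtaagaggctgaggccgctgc
The capitals mark a match to TGACNNNGC on the opposite strand at position 26 after the start of Abcb1a. In Abcb1b they mark a p53 half-site at -191, CCAAT at -87 and CCAAT on the opposite strand at -66. The other motifs searched had no match in these 2 windows.

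The log2 signal of Abcb1b was 4.32, 4.02, 4.12, 5.14 and 4.46 in DEN DKO, 6.55, 5.38, 5.62 and 5.58 in DEN RbKO, and 4.3, 4.22, 4.18, 4.89 and 3.55 in DEN p53KO. It was 5.86, 5.22, 4.27, 4.70 and 4.28 in DEN WT, 3.39, 3.49 and 3.62 in untreated DKO, and 3.77, 3.85 and 3.64 in untreated WT. All DEN RbKO arrays lay above all DEN DKO and all DEN p53KO arrays, and both DEN WT and DEN DKO lay above their untreated groups without overlap. From the lowest mean to the highest the groups were untreated DKO (3.50 ± 0.12), untreated WT (3.75 ± 0.11), DEN p53KO (4.23 ± 0.48), DEN DKO (4.42 ± 0.44), DEN WT (4.87 ± 0.68) and DEN RbKO (5.78 ± 0.52; SD, n = 3 to 5). Among neighbours only both untreated groups did not overlap, and their difference was not called (-0.39, SE 0.34, adjusted p = 0.724).

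Abcb1b rose with DEN in WT by 1.14 (SE 0.29, 2.20-fold, adjusted p = 0.0246), with 1.3 (adjusted p = 0.0155) within set 1 and 0.85 within set 2. Leaving out any of 4 arrays ended the call (untreated WT replicates 1 and 2, DEN WT replicates 1 and 2; adjusted p up to 0.125), and so did Xist as a covariate (0.86, adjusted p = 0.129). With no set term the rise in WT was not called either (1.11, adjusted p = 0.106). In DKO Abcb1b was at 0.79 (SE 0.31, adjusted p = 0.0695). It was called there with Xist as a covariate (0.97, adjusted p = 0.0259). The set as a random block (0.85, adjusted p = 0.0488) and no set term (0.91, adjusted p = 0.0492) also gave that call. The responses of DKO and WT differed by -0.34 (95% confidence interval -1.22 to 0.53, adjusted p = 0.681). The untreated arrays of both genotypes, at 3.39 to 3.85, lay just above the filter limit of 3.33. Signal over background limits what these differences can show.

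After DEN, Abcb1b was lower in DKO than in RbKO by a log2 difference of -1.59 (SE 0.29, 0.333-fold, adjusted p = 0.00596), and lower in p53KO than in RbKO by -1.84 (SE 0.31, 0.280-fold, adjusted p = 0.00443). Within set 1 these differences were -1.69 (adjusted p = 0.00710) and -1.59 (adjusted p = 0.0140), and leaving out any single array ended neither call. RbKO was above WT by 0.86 (SE 0.27, adjusted p = 0.0405), or 0.73 (adjusted p = 0.185) within set 1, and leaving out any of 5 arrays took the call away (adjusted p = 0.191 at most, without DEN RbKO replicate 4). Against WT, p53KO was at -0.98 (SE 0.31, adjusted p = 0.0985) and DKO at -0.73 (SE 0.29, adjusted p = 0.101, or -0.96 and 0.0442 within set 1). DKO and p53KO differed by 0.25 (95% confidence interval -0.28 to 0.78, adjusted p = 0.692).

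**Figure D3:**
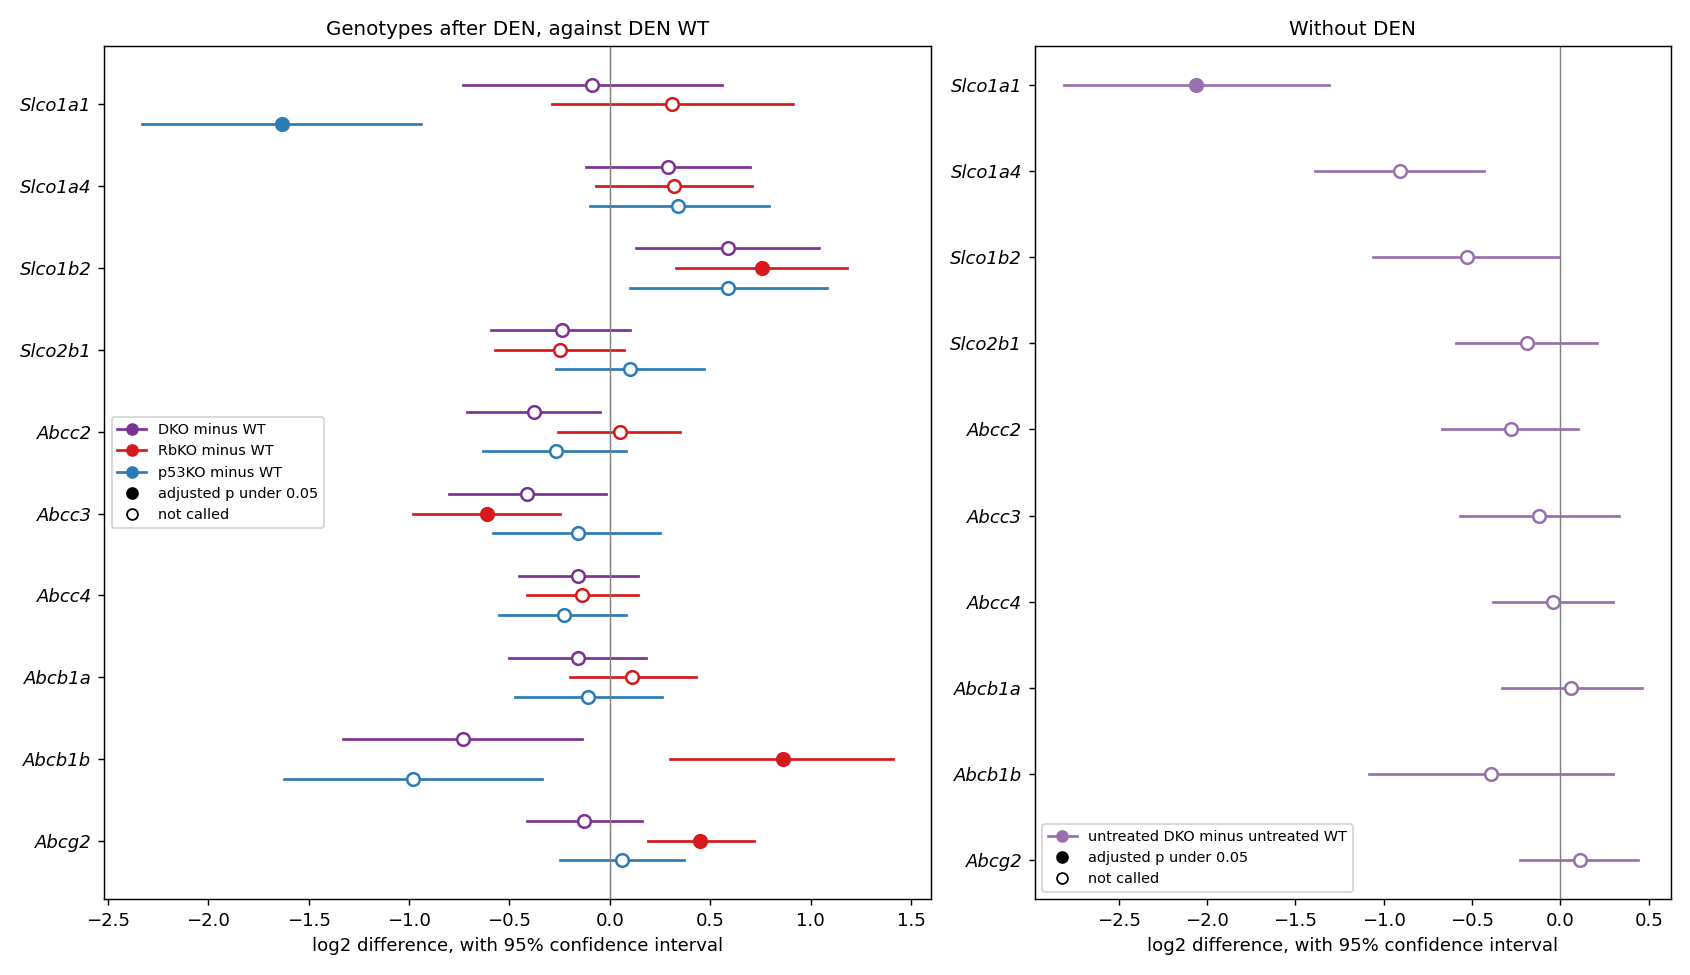
Left, log2 differences of DKO, RbKO and p53KO from WT after DEN, and right, of DKO from WT without DEN; points are limma estimates with 95% confidence intervals and filled points have an adjusted p under 0.05. Abcb1b is at 0.86 in RbKO, and at -0.73 in DKO and -0.98 in p53KO, where it was not called, and Slco1a1 is at -1.63 in p53KO after DEN and -2.06 in untreated DKO.

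Abcb1a, the other P-glycoprotein gene, ranged from 5.76 to 6.32 in DEN DKO, 6.14 to 6.41 in DEN RbKO, 5.70 to 6.49 in DEN p53KO, 5.96 to 6.45 in DEN WT, 6.09 to 6.16 in untreated DKO and 5.81 to 6.44 in untreated WT. All groups overlapped, with means between 6.01 and 6.26, and limma called it in 0 of 11 comparisons (0 at an unadjusted p under 0.05). Its DEN response was -0.19 in DKO (95% confidence interval -0.55 to 0.18) and 0.04 in WT (-0.31 to 0.38), an interval whose upper end lies below the 1.14 estimated for Abcb1b in WT. The difference between both genes was not tested.

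Abcg2 exports urate, porphyrins and sulfate conjugates. Its log2 signal was 7.44, 7.25, 7.58, 7.51 and 7.35 in DEN DKO, 7.89, 7.85, 7.94 and 7.73 in DEN RbKO, and 7.61, 7.47, 7.71, 7.66 and 7.70 in DEN p53KO. It was 7.39, 7.99, 7.60, 6.77 and 6.88 in DEN WT, 7.20, 7.27 and 7.45 in untreated DKO, and 7.22, 7.00 and 6.90 in untreated WT. All DEN RbKO arrays lay above all DEN DKO and all DEN p53KO arrays, whereas DEN WT spread from 6.77 to 7.99, with both arrays of set 2 at its low end. Ranked upwards by mean the groups began with untreated WT (7.04 ± 0.16) and went on to untreated DKO (7.31 ± 0.13), DEN WT (7.33 ± 0.51), DEN DKO (7.42 ± 0.13), DEN p53KO (7.63 ± 0.10) and DEN RbKO (7.85 ± 0.09; SD, n = 3 to 5), and of these neighbours only the last 2 did not overlap.

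Abcg2 was higher in RbKO than in WT after DEN by 0.45 (SE 0.13, 1.37-fold, adjusted p = 0.0263), but at 0.23 (adjusted p = 0.397) within set 1, and at 0.32 (adjusted p = 0.254) without DEN RbKO replicate 4. That call also ended with Xist as a covariate (0.44, adjusted p = 0.0509) and with no set term (0.53, adjusted p = 0.0850). On the low-Xist arrays the difference was 0.55 and was not called. DKO was below RbKO by a log2 difference of -0.58 (SE 0.14, adjusted p = 0.0436), or -0.47 (adjusted p = 0.0919) within set 1, and leaving out any of 7 arrays ended the call (adjusted p up to 0.123 without DEN RbKO replicate 4). The set as a random block (-0.51, adjusted p = 0.117) and no set term (-0.43, adjusted p = 0.371) ended it too. It was called with Xist as a covariate (-0.58, adjusted p = 0.0479), but not on the low-Xist arrays (-0.79). The additivity term was -0.64 (SE 0.18, adjusted p = 0.0792). With DEN, Abcg2 was at 0.09 in DKO (SE 0.15, adjusted p = 0.720) and at 0.32 in WT (SE 0.14, adjusted p = 0.238), or 0.55 (adjusted p = 0.0256) in WT within set 1.

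On the basolateral side, Abcc3 exports glucuronides and bile acids to the blood. Its log2 signal was 5.07, 4.92, 5.11, 4.81 and 4.23 in DEN DKO, 4.68, 4.85, 4.71 and 4.62 in DEN RbKO, and 5.06, 4.82, 5.19, 4.96 and 5.18 in DEN p53KO. It was 4.99, 5.09, 5.22, 5.63 and 5.76 in DEN WT, 5.91, 5.83 and 5.57 in untreated DKO, and 6.35, 5.89 and 5.52 in untreated WT. All DEN DKO arrays lay below all untreated DKO arrays, and all DEN RbKO arrays below all DEN WT arrays. From the lowest mean to the highest the groups were DEN RbKO (4.71 ± 0.10), DEN DKO (4.83 ± 0.35), DEN p53KO (5.04 ± 0.16), DEN WT (5.34 ± 0.34), untreated DKO (5.77 ± 0.18) and untreated WT (5.92 ± 0.41; SD, n = 3 to 5), each overlapping with the next.

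Abcc3 fell with DEN in DKO by 0.88 on the log2 scale (SE 0.20, 0.545-fold, adjusted p = 0.00264), or -0.74 (adjusted p = 0.000398) within set 1, and leaving out any single array did not end this call. In WT the difference was -0.59 (SE 0.19, adjusted p = 0.0853), with -1.02 (adjusted p = 0.000217) within set 1. Within set 2 it was 0.17, of the other sign, but there 2 DEN arrays stood against 1 untreated array. The responses differed by -0.29 (95% confidence interval -0.86 to 0.28, adjusted p = 0.581). After DEN, RbKO was below WT by a log2 difference of -0.61 (SE 0.18, adjusted p = 0.0256), or -0.36 (adjusted p = 0.138) within set 1, and each of 3 arrays ended that call (adjusted p up to 0.174 without DEN RbKO replicate 4). DKO was at -0.41 (SE 0.19, adjusted p = 0.171) and p53KO at -0.16 (SE 0.20, adjusted p = 0.749) against WT.

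Abcc4, which exports bile acids together with glutathione and also cyclic nucleotides, lay close to the filter. It ranged from 3.87 to 4.22 in DEN DKO, 3.86 to 4.40 in DEN RbKO, 3.53 to 4.16 in DEN p53KO, 4.14 to 4.58 in DEN WT, 3.79 to 4.25 in untreated DKO and 4.00 to 4.39 in untreated WT, with overlap between all neighbours by mean. By limma none of the 11 comparisons called it, and 0 had an unadjusted p under 0.05. Its DEN response was -0.01 in DKO (95% confidence interval -0.32 to 0.30) and 0.11 in WT (-0.19 to 0.40).

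How the transporters varied together was described by Pearson's r over the 25 arrays after the mean of each array set was removed. The sets hold different groups, so this also shifts arrays of one group by different amounts between sets. The arrays share their groups, and no test was made. Slco1a4 and Slco1b2 had r = 0.74, Abcb1b and Abcg2 0.64, and Abcc2 and Abcc3 0.54. Abcc3 ran opposite to Abcb1b at -0.68 and to Abcg2 at -0.62. In the plot of Abcc3 against Abcb1b the DEN RbKO arrays lie at low Abcc3 and high Abcb1b, and the untreated arrays at the other end. DEN WT replicate 4 is the far point of the plot of Slco1b2 against Slco1a4.

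**Figure D4:**
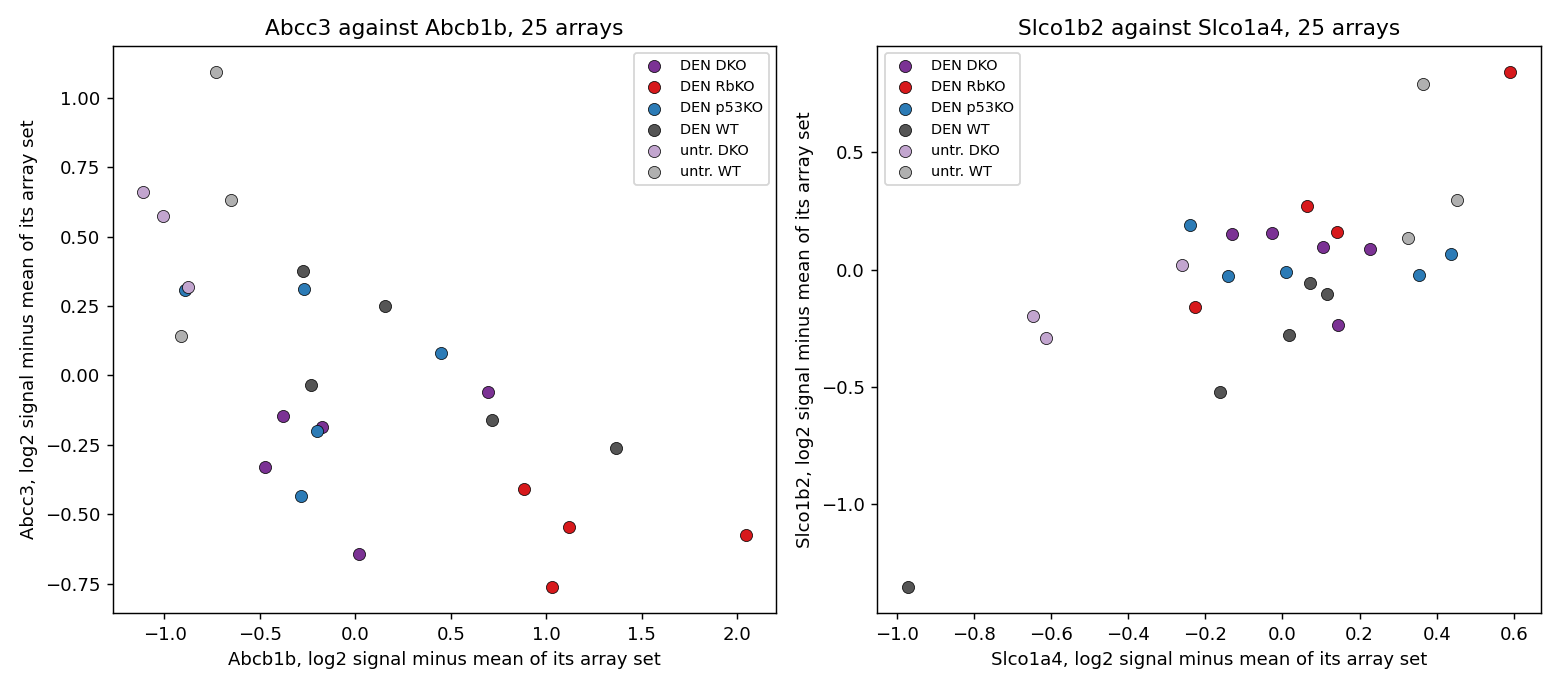
Log2 signal minus the mean of the array set for Abcc3 against Abcb1b (left, r = -0.68) and Slco1b2 against Slco1a4 (right, r = 0.74), with 1 point per array coloured by group. The 4 DEN RbKO arrays lie at the lower right of the left panel, and a DEN WT array lies alone at the lower left of the right panel.

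The 3 genes most like each transporter were found by the same measure over all genes tested. Picked as the highest of 15951 genes over 25 arrays, their r values are raised by that choice, and no test was made. For Slco1a1 they were Gm6614 (0.82), Zbtb20 (0.77) and the cytochrome P450 gene Cyp2c39 (0.76), and for Slco1a4 Ap3m1 (0.88), the transferrin receptor gene Tfrc (0.88) and the sulfotransferase gene Sult1d1 (0.87). Slco1b2 was nearest to Akr1c20 (0.96), Mir181b-2 (0.91) and Akr1c6 (0.91), of which the Akr1c genes encode steroid-reducing enzymes. Slco2b1 was nearest to Sdr42e1 (0.76), Rgl3 (0.75) and the gene of the constitutive androstane receptor, Nr1i3 (0.74). Abcc2 was nearest to Zzef1 (0.89), Nbas (0.89) and Cyp4a31 (0.88), Abcc3 to Colec11 (0.94), Dcaf11 (0.92) and Afmid (0.92), and Abcc4 to Ccrl2 (0.72), Prss53 (0.64) and Slc10a6 (0.63). Abcb1a was nearest to Pde4d (0.79), Atp11a (0.76) and Fsip1 (0.72). Abcb1b was nearest to Plod2 (0.92), the excision repair gene Ercc5 (0.91) and Mdm2 (0.90), whose product degrades p53. Abcg2 was nearest to Hsdl2 (0.89), Lin7c (0.87) and Ddx1 (0.87).

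Other hepatic transporters gave a background for the 10 genes. Of 23 listed, 20 were tested. With DEN in DKO 9 fell and 0 rose at a median of -0.45, beside 16.5% and 4.49% of all genes. In WT 3 fell and 0 rose at -0.10, beside 1.91% and 2.08% of all genes. In DKO the first were the sterol exporter gene Abcg5 at -1.07 (SE 0.17), the monocarboxylate transporter gene Slc16a1 at -0.96 (SE 0.15), the cholesterol exporter gene Abca1 at -1.05 (SE 0.17) and the prostaglandin transporter gene Slco2a1 at -1.06 (SE 0.18). In WT they were the bile salt export pump gene Abcb11 at -0.98 (SE 0.16), the sodium-driven bile acid importer gene Slc10a1 at -0.59 (SE 0.13) and Abca1 at -0.55 (SE 0.16). The responses differed for 3, all below 0 (Slc16a1, Slco2a1 and Abcg5 at -1.17, -1.09 and -0.83), beside 8.54% of all genes called below 0. The 3 Slco genes described above lay above 0. After DEN, 4 of the 20 were lower in DKO than in WT, 2 in RbKO and 0 in p53KO, and 0 were higher in any of the 3. Of all genes, 9.14%, 6.13% and 1.07% were lower.

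With DEN in DKO, 16.5% of all genes were called lower and 4.49% higher. Of 16 receptors and factors known to regulate transporters, 10 fell and 0 rose there, at a median of -0.65. They were led by Ppara at -1.46 (SE 0.22), which drives fat oxidation, the hepatocyte factor Hnf4a at -1.37 (SE 0.21), Stat5b, which relays growth hormone, at -1.14 (SE 0.18) and the pregnane X receptor gene Nr1i2 at -0.93 (SE 0.17). In WT, where 1.91% of all genes fell and 2.08% rose, 3 of the 16 fell and 1 rose, at a median of -0.31. Those that fell were the growth hormone receptor gene Ghr at -0.95 (SE 0.16), Esr1 at -0.69 (SE 0.18) and Hnf4a at -0.76 (SE 0.20). Nfe2l2, the gene of Nrf2, rose by 0.71 (SE 0.13). After DEN, 5 of the 16 were lower in DKO than in WT, led by Nr1i3 at -1.29 (SE 0.25), beside 9.14% of all genes. In p53KO 1 was lower, Rxra at -0.59 (SE 0.15), beside 1.07% of all genes. In RbKO 4 were lower, beside 6.13% of all genes. These were Nr1i2 at -0.66 (SE 0.15), Nr1i3 at -0.79 (SE 0.23), Rxra at -0.42 (SE 0.13) and Hnf4a at -0.57 (SE 0.19). In untreated livers 0 of the 16 were called between DKO and WT, at a median of 0.02, beside 1.11% of all genes.

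Nrf2 targets, such as the genes of detoxifying enzymes, had 6 of 12 higher and 0 lower with DEN in WT at a median of 0.64. Of all genes, 2.08% were higher and 1.91% lower there. The first targets were Ephx1 at 2.31 (SE 0.16), Ugdh at 1.37 (SE 0.18) and Nqo1 at 1.03 (SE 0.15). In DKO 2 of the targets were higher and 3 lower at a median of 0.12, beside 4.49% and 16.5% of all genes. The difference between the responses was called below 0 for 6, at a median of -0.71, beside 8.54% of all genes. Ephx1 at -1.96 (SE 0.23) and Osgin1 at -2.34 (SE 0.44) led these. In untreated livers 2 of the 12 targets were higher in DKO than in WT and 0 lower, beside 0.865% and 0.244% of all genes. The 2 were Osgin1 at 1.68 (SE 0.35) and Gclc at 0.69 (SE 0.15). Those untreated arrays also enter the difference between the responses. Targets of the constitutive androstane and pregnane X receptors had 4 of 9 higher and 2 lower with DEN in DKO, and 2 higher and 0 lower in WT. In both genotypes Aldh1a7 came first by p, at 1.16 (SE 0.19) and 1.07 (SE 0.18). The 2 lower in DKO were Cyp2b13 at -3.37 (SE 0.76) and Cyp2b9 at -4.48 (SE 1.15). The difference between the responses was called above 0 for 1 of the 9, Cyp3a11 at 0.79 (SE 0.24), beside 1.36% of all genes. After DEN, Cyp2b10 at 1.20 (SE 0.29) and Cyp2c55 at 0.95 (SE 0.21) were higher in p53KO than in WT, where Slco1a1 was lower. Of 3 targets of the dioxin receptor tested, Cyp1a2 was lower with DEN in DKO at -1.40 (SE 0.43) and in WT at -1.41 (SE 0.40). Of 10 acute phase genes 4 were higher and 2 lower with DEN in DKO, and 5 higher and 0 lower in WT. The 2 of 10 lower in DKO stood beside 16.5% of all genes.

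Markers of other states and cells moved with some of these comparisons. In whole liver fewer cells of a type and less RNA per cell cannot be told apart. Of all genes, 0.865% were higher in untreated DKO than in untreated WT, and 16.5% were lower with DEN in DKO. Called below 0 in the difference between the responses were 8.54%. After DEN, 9.14% were lower in DKO than in WT and 0.884% lower than in RbKO. Fetal liver genes were higher in untreated DKO than in untreated WT for 4 of 10 tested (0 lower), with Igf2 at 2.72 (SE 0.53) and Afp at 2.42 (SE 0.57), in the comparison in which Slco1a1 was lower. Neutrophil markers were higher there for 2 of 6, with a mean log2 signal of 6.68 to 7.53 in untreated DKO, against 4.95 to 5.07 in untreated WT. With DEN in DKO 4 of 6 neutrophil markers fell, and 6 of 7 endothelial markers fell as well, whose mean was 5.98 to 6.25 in DEN DKO, against 6.90 to 7.00 in untreated DKO. Of 7 stellate cell markers, 4 fell too, with a mean of 5.79 to 5.99 in DEN DKO, against 6.55 to 6.62 in untreated DKO. Markers of erythroid cells fell for 2 of 2 tested, of macrophages for 2 of 6 and of lymphocytes for 1 of 3. Of 4 cholangiocyte markers, 0 were called there. In the difference between the responses of DKO and WT, where 3 uptake genes lay above 0, called below 0 were 4 of 10 fetal liver genes, 3 of 6 neutrophil markers, 3 of 7 endothelial markers and 1 of 7 stellate cell markers. After DEN, 5 of 7 endothelial markers were lower in DKO than in WT. In DKO against RbKO, where Abcb1b and Abcg2 were lower, so were 2 of 7 endothelial markers and 1 of 6 neutrophil markers. Hepatocyte markers with DEN in DKO were higher for 1 of 7 (Alb at 0.34) and lower for 2 (Apob at -0.45 and Apoa1 at -0.31), and 0 of 7 were called in the other 10 comparisons by limma. The part of these shifts in the transporter differences was not tested.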

How the data were processed

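Total RNA of frozen mouse livers was amplified (WT-Ovation Pico) and hybridised to 25 arrays, per the labels' protocols. The authors deposited log2 values of 35555 probe sets, made with RMA in Affymetrix Expression Console 1.1, per the submitters' processing notes. The genome build is not given in the sources used here. Through the platform annotation 21789 probe sets had 1 gene symbol, 1620 several and 12146 were not listed. The probe set with the highest mean stood for each of 19938 genes, and 3987 genes with a mean under the 20th percentile (3.33) were left out.

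All 6 groups entered 1 limma fit (limma 3.58.1, R 4.3.3) with the array set as a term, and 11 two-sided comparisons were adjusted by Benjamini-Hochberg over 15951 genes, with calls at an adjusted p under 0.05. The fit was tested on simulated data with changes in DEN WT only. That test covered the DEN responses in WT and in DKO, and no other comparison. Arrays correlated at 0.915 to 0.991, so no pair held identical values, which does not show whether any came from the same animal. The p53 gene is not reported here, so the p53 genotypes have no check. Also run were fits with the set dropped or treated as a random block, on set 1 alone or with set 2 removed, with no dim filter or one at the 40th percentile, with probe sets averaged per gene, with arrays centred on their medians, with Xist as a covariate, and with each array left out in turn; the fit on low-Xist arrays was chosen after seeing the data. The 10 transporters are all named, and from each other list up to 4 genes with the smallest p in a comparison. The members and lists were chosen with earlier results of these data known. Promoters came from RefSeq tables, with windows for 9 of the 10 genes.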

Additional observations from a re-analysis of the deposited data

Results flagged for a closer look

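The DEN response of 3 uptake genes differed between DKO and WT by the limma test of that difference, with 1.97 for Slco1a1, 1.20 for Slco1a4 and 1.12 for Slco1b2 on the log2 scale. Within the 40 combinations of gene and group of 4 or 5 arrays, 3 arrays lay apart from the others of their group by Dixon's test. Chance does so in about 1 of 20 combinations where the arrays of a group are alike. The signals were not corrected for the array set. All 3 arrays lay outside set 1, which holds most arrays of their groups, so that rate need not hold. Slco1a4 was at 7.60 in DEN WT replicate 4, against 8.48 to 8.76 in the other arrays of that group. Slco1b2 was at 9.55 in DEN DKO replicate 4, against 9.84 to 9.90. Abcc2 was at 10.43 in DEN RbKO replicate 4, against 9.53 to 9.66.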

How the results depend on the processing

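Of 20 calls, 3 kept their sign and their side of the threshold in every alternative run: Abcc3 with DEN in DKO (-0.98 to -0.74), Abcb1b in DKO against RbKO (-2.14 to -1.34) and Abcb1b in p53KO against RbKO (-2.42 to -1.55). No call changed sign in any alternative, and 12 values not called became called in at least 1 alternative. Counts of transporters called that moved by over 1.5 times are given first. With no set term there were 0 with DEN in WT (2 in the main fit), 0 in RbKO against WT (4) and 1 in DKO against RbKO (2). With the set as a random block 1 was called in DKO against RbKO. In set 1 alone, 4 were called with DEN in WT, 3 in untreated DKO against WT (1), 0 in RbKO against WT, 2 in DKO against WT after DEN (0) and 1 in DKO against RbKO; without set 2 they were 4, 3, 0, 1 and 1. At the 40th percentile 2 were called in untreated DKO against WT. With Xist as a covariate 0 were called with DEN in WT and 1 in the difference between responses (3). On low-Xist arrays, 2 were called with DEN in DKO (4), 2 in RbKO against WT, 1 in DKO against RbKO, 1 in p53KO against RbKO (2), and 0 with DEN in WT, in the difference between responses, in p53KO against WT (1) and in DKO against p53KO (1). Leaving out each array gave 0 to 4 with DEN in WT, 0 to 1 in untreated DKO against WT, 0 to 2 in p53KO against WT, 0 to 4 in RbKO against WT, 0 to 2 in DKO against WT after DEN, 1 to 2 in DKO against RbKO, 1 to 2 in p53KO against RbKO and 0 to 1 in the additivity term. Smaller moves were seen with DEN in DKO (5 with the random block, 3 with arrays centred, 3 to 4 with an array left out), in the difference between responses (2 with no set term, 2 without set 2, 2 to 3 with an array left out) and in RbKO against WT (3 with Xist as a covariate). An equal count can hold other genes: with no set term Abcc2 was lost and Abcb1b gained with DEN in DKO. The smaller fits hold fewer arrays, and the cause of these moves was not tested. Centring arrays on their medians shifted the median of all genes by 0.10 with DEN in DKO and by 0.12 in the difference between responses. No paired analysis was possible because the replicate numbers were given in accession order and pair no samples. Slco2b1 and Abcc4, and Abcb1b on the untreated arrays (3.39 to 3.85), lay near the filter, where signal over background limits what can be seen.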
